A study of Arabidopsis thaliana with 12 samples.

Results

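The transcriptome of Arabidopsis seedlings that overexpress RDM4 was compared before and after 3 h at 4 °C. The comparison used 4 of the 12 arrays of the series, chosen by their titles: 2 arrays of overexpressors after 3 h in the cold and 2 of overexpressors at room temperature, called 0 h here. The spread behind its tests was estimated from all 12 arrays. The overexpressors carried RDM4 behind the 35S promoter (35S::RDM4) in the Col ecotype. The other arrays held overexpressors after 48 h and wild-type Col seedlings at 0, 3 and 48 h, with 2 arrays in each group. Seedlings were 2 weeks old and had grown on MS plates at 23 °C by day and 18 °C by night, with 16 h of light and 8 h of dark. Per the labels, each biological replicate was total RNA from leaves of at least 30 seedlings of a plate. The 35S promoter drives a gene in most cells and not where the gene's own promoter would. The labels speak of overexpression lines, and the sources used here do not say how many lines entered an array. The hour of sampling is not given either, so 3 h in the cold and 3 h of the day cannot be told apart. In RNA from whole tissue, fewer cells of a type and less transcript per cell cannot be told apart.

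Cold triggers the CBF genes (CBF1, CBF2 and CBF3, also called DREB1B, DREB1C and DREB1A), transcription factors of the AP2/ERF family that bind the C-repeat in the promoters of cold-regulated (COR) genes. COR genes encode dehydrins, membrane-protecting chloroplast proteins and enzymes that make compatible sugars, and their products raise freezing tolerance. RDM4, also called DMS4, is a conserved nuclear protein of the IWR1 type that associates with RNA polymerase II and is needed for RNA-directed DNA methylation, in which small RNAs guide methyltransferases to transposons and repeats.

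Each array carried 43603 distinct probes of a 1-colour Agilent design, of which 34285 were named through RefSeq and covered 25383 loci. Signals are given as log2 values relative to the 75th percentile of the same array, so that 0 is the brightness of the 75th percentile of probes. A probe entered the test if it was well above background on both arrays of either group, which left 20526 genes. Between 73.9% and 76.1% of probes were well above background on the 4 arrays, and none was saturated. Replicate arrays correlated at r = 0.9975 for 0 h and 0.9977 for 3 h. The within-group SDs of arrays, pooled over genes, were 0.131 and 0.122 log2 units. The replicate 1 arrays of both times lay on 1 slide and were scanned on the same day, and the replicate 2 arrays lay on 2 other slides and were scanned on another day. Both scan days therefore held a 0 h and a 3 h array, and across genes the change seen on 1 day correlated with that seen on the other at r = 0.938 (Spearman's rho = 0.931). Genes are not independent replicates. All wild-type arrays lay on slides that held none of the 4 arrays. A difference in level between the genotypes at 1 time therefore cannot be told apart from a difference between slides.

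RDM4 itself was bright in all 4 arrays of the overexpressors, at 6.11 and 5.9 at 0 h and 5.91 and 5.77 at 3 h. In wild-type seedlings the same probe read 0.58 and 0.50 at 0 h and 0.16 and 0.13 at 3 h, so all 4 overexpressor arrays lay far above all 4 wild-type arrays. The 0 h and 3 h arrays of the overexpressors overlapped for this gene, and the change of -0.16 ± 0.10 (SE) did not pass the test (adjusted p = 0.161). With slide as a fixed block it was -0.19 with an adjusted p of 0.0375.

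Most measured genes passed the test within 3 h. limma's moderated test with Benjamini-Hochberg adjustment over all genes called 14527 of 20526 genes (70.8%), of which 6813 were higher (33.2%) and 7714 lower (37.6%) after 3 h. Most of these changes were small, and 9821 of the called genes changed by less than 1.5-fold. At least 2-fold changes were called for 1371 genes that were higher (6.68%) and 579 that were lower (2.82%). The imbalance grew with the size of the change: 356 genes rose and 83 fell by at least 4-fold, and 44 rose and 3 fell by at least 16-fold. These counts include genes not well above background on either array of a group, whose sizes are uncertain. There were 127 such genes among the 1371 and 38 among the 579. The arrays of the groups did not overlap for 40.5% of genes in the upward and 46.1% in the downward direction, so absence of overlap says little about a single gene. With such shares, rises and falls side by side in a list do not set that list apart. The 3 h counts of each list below are to be read against 33.2% higher and 37.6% lower. The median change over all genes was -0.03.

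**Figure D1:**
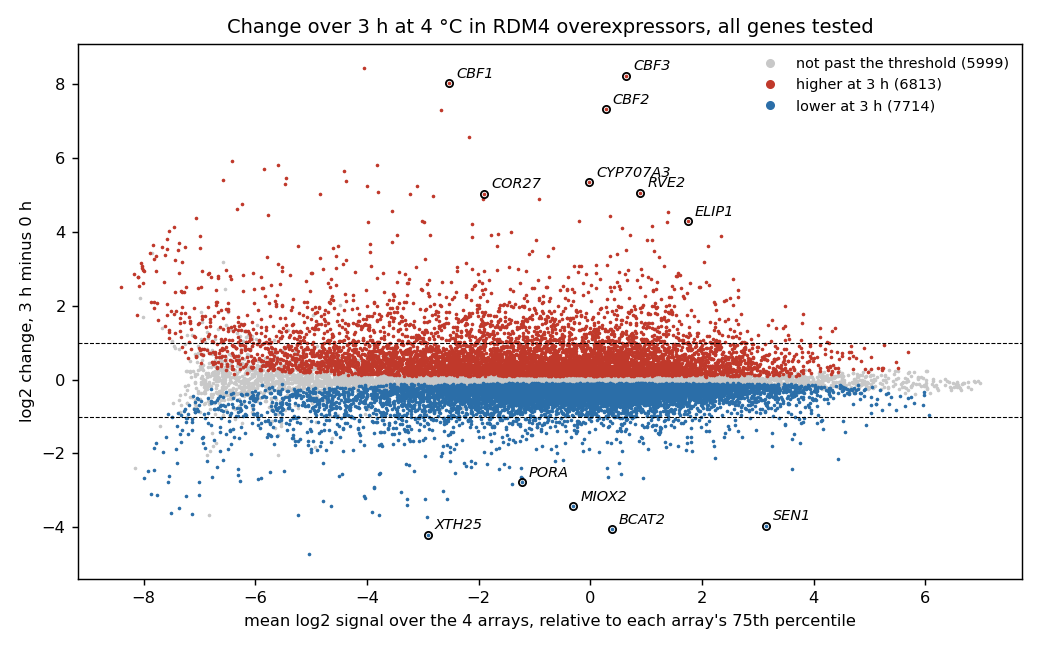
Log2 change after 3 h at 4 °C (vertical axis) against the mean log2 signal of the 4 overexpressor arrays relative to each array's 75th percentile (horizontal axis), with 1 point for each of 20526 genes. Red and blue points passed the test, dashed lines mark 2-fold, and the points reach much further upward than downward, with CBF1, CBF2 and CBF3 near 8.

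The CBF genes were among the largest changes measured. CBF3 read -3.42 and -3.51 at 0 h and 4.99 and 4.53 at 3 h, a rise of 8.23 ± 0.13 (SE, adjusted p = 7.99e-10) or 300-fold. CBF1 was near the lower end of the measurable range before the cold, with -6.61 and -6.49 at 0 h and 1.48 and 1.49 at 3 h, a rise of 8.04 ± 0.05 (SE, adjusted p = 1.5e-11) or 263-fold. CBF2 read -3.99 and -2.78 at 0 h and 3.97 and 3.9 at 3 h, a rise of 7.32 ± 0.30 (SE, adjusted p = 1.29e-07) or 160-fold. For each of them both 3 h arrays lay far above both 0 h arrays. The 0 h arrays of CBF2 differed from each other by more than 1 log2 unit, so its rise was 7.97 between the replicate 1 arrays and 6.68 between the replicate 2 arrays. The same pair of values was 8.42 and 8.04 for CBF3 and 8.09 and 7.99 for CBF1. The 3 genes have similar coding sequences, and the specificity of their probes was not checked here. CBF4 and DDF1, relatives known for roles in drought and salt responses, were not well above background at 0 h and rose at least 3.21-fold and 11-fold. All 5 members of the DREB1 family that could be tested were higher after 3 h, and DDF2 was not tested.

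**Figure D2:**
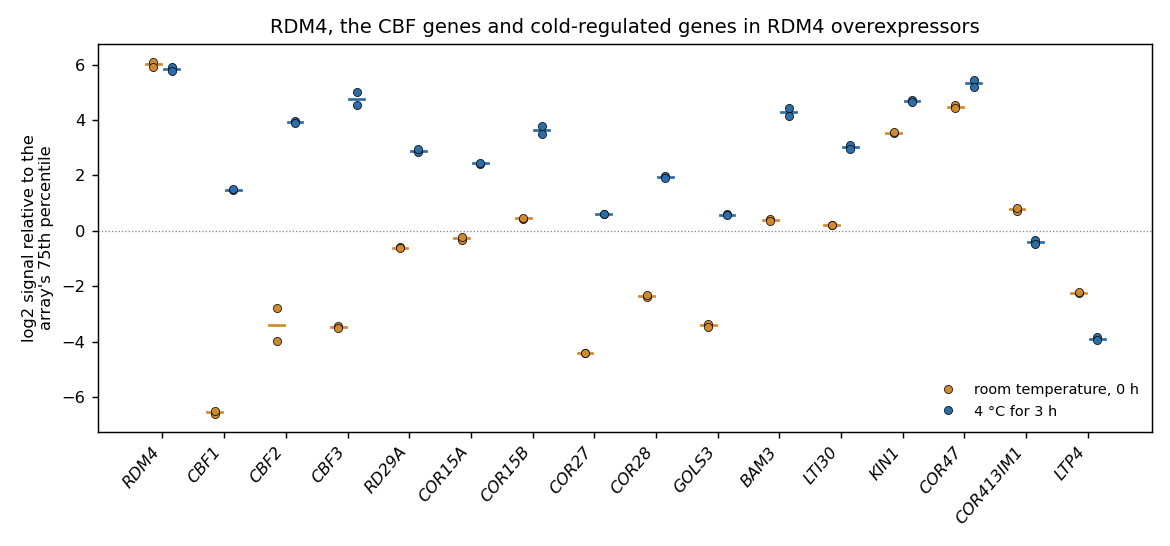
Log2 signal relative to the array's 75th percentile for RDM4, the CBF genes and 12 genes of the CBF regulon list in the 4 overexpressor arrays. Points are arrays and bars are group means of 2 arrays; RDM4 stays near 6 while CBF1, CBF2 and CBF3 climb from below -2 to above 1, and COR413IM1 and LTP4 are lower at 3 h.

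Genes of the CBF regulon followed, with a wide spread in size. Of 23 listed genes, 18 were higher and 4 lower, where 33.2% and 37.6% of all genes were called in those directions, and the median change was 1.32. COR27 and COR28, which encode clock-linked regulators of freezing tolerance, showed the largest rises. COR27 read -4.43 and -4.42 at 0 h and 0.61 and 0.62 at 3 h (5.04 ± 0.06 (SE, adjusted p = 1.74e-10)), and COR28 rose by 4.3 ± 0.05 (SE). GOLS3, a galactinol synthase that makes the precursor of raffinose, read -3.36 and -3.46 at 0 h and 0.60 and 0.57 at 3 h and rose by 3.99 ± 0.04 (SE, adjusted p = 1.48e-10). RD29A, the common reporter of the pathway, read -0.60 and -0.61 at 0 h and 2.83 and 2.95 at 3 h (3.5 ± 0.12 (SE, adjusted p = 4.26e-08), or 11.3-fold). BAM3, the plastid beta-amylase that releases maltose in the cold, rose by 3.88 ± 0.09 (SE). The chloroplast proteins COR15A and COR15B rose by 2.72 ± 0.08 (SE) and 3.19 ± 0.17 (SE), and COR15A read -0.33 and -0.23 at 0 h and 2.43 and 2.45 at 3 h. In each of these genes the groups lay apart by far more than the gap between replicate arrays.

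Dehydrins and related hydrophilic proteins rose as well. LTI30 rose by 2.83 ± 0.06 (SE) and ERD10 by 1.98 ± 0.12 (SE). KIN1 read 3.52 and 3.56 at 0 h and 4.71 and 4.65 at 3 h, a rise of 1.15 ± 0.14 (SE, adjusted p = 0.000109), and its neighbour KIN2 rose by 1.32 ± 0.11 (SE). COR47 read 4.52 and 4.44 at 0 h and 5.46 and 5.19 at 3 h and rose by 0.84 ± 0.22 (SE, adjusted p = 0.00717), or 1.8-fold. The 4 members that fell were the lipid transfer proteins LTP4 (-1.66) and LTP3 (-0.40, or -0.22 with an adjusted p of 0.0829 with slide as a fixed block) and the inner envelope proteins COR413IM1 (-1.17) and COR413IM2 (-0.47). COR413IM1 read 0.71 and 0.83 at 0 h and -0.33 and -0.46 at 3 h, while the plasma membrane member COR413-PM1 rose by 1.4 ± 0.07 (SE). SAG21 was at -0.10 and did not pass the test.

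Several of these genes stood further above their 0 h level at 48 h than at 3 h. The 48 h comparison shares its 0 h arrays with the 3 h comparison, so values are set side by side only, and 79.9% of genes passed at 48 h. GOLS3 was 3.99 above its 0 h level at 3 h and 7.98 at 48 h. The same values were 2.72 and 5.68 for COR15A, 3.5 and 5.86 for RD29A, and -1.17 and 3.24 for COR413IM1. For the regulators the order was the other way, with 8.23 and 3.8 for CBF3 and 8.04 and 5.0 for CBF1.

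Transcription factors known to respond early to cold rose almost throughout. Of 28 listed factors 25 were higher and 1 lower, with a median change of 2.08 against -0.03 over all genes. RRTF1, a redox-responsive ERF factor, was not well above background at 0 h and rose at least 20.4-fold. ZAT10, a zinc finger repressor, read -1.45 and -1.54 at 0 h and 2.63 and 2.6 at 3 h and rose by 4.11 ± 0.05 (SE, adjusted p = 2.66e-10). ERF6 (3.36), DREB2C (2.86), ERF5 (2.78) and ERF2 (2.57), all of the AP2/ERF class, and ZAT12 (2.51), which dampens CBF expression, rose in the same way. WRKY22 was the 1 that fell (-0.18), and its call was lost without either replicate 1 array (-0.12 in both cases).

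The proteins that act above the CBF genes were less affected at the transcript level. Among 28 such regulators 12 rose, 7 fell and 9 did not pass, with a median of 0.07, and ZAT12 was the only one to rise 2-fold. ICE1, the bHLH activator of CBF3, read 0.85 and 0.80 at 0 h and 1.01 and 1.04 at 3 h and rose by 0.20 ± 0.05 (SE, adjusted p = 0.008), a call lost without the replicate 2 array at 0 h (0.18, adjusted p = 0.0518), and ICE2 rose by 0.41 ± 0.05 (SE). OST1, the kinase that stabilises ICE1, rose by 0.86 ± 0.18 (SE), and PIF7, a repressor of CBF genes in long days, by 0.76 ± 0.03 (SE). PIF4 was lowest, at -0.78 ± 0.07 (SE, adjusted p = 1.65e-05). Of the calmodulin-binding CAMTA factors, CAMTA3 fell (-0.29). HOS1, the ubiquitin ligase that targets ICE1, was at 0.08, and MYB15, a repressor of CBF genes, at 0.06; neither passed the test.

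Morning clock genes rose together. All 14 genes of the morning group, MYB factors of the CCA1 and REVEILLE family and their LNK partners, were higher, with a median of 1.71. RVE2 read -1.66 and -1.61 at 0 h and 3.43 and 3.41 at 3 h and rose by 5.06 ± 0.04 (SE, adjusted p = 6.58e-11). RVE1 rose by 3.79 ± 0.04 (SE), RVE3 by 3.72 ± 0.06 (SE), CCA1 by 2.96 ± 0.05 (SE) and LHY by 2.79 ± 0.07 (SE). Of 19 day and evening genes 13 rose and 5 fell. PRR5 (3.61), ELF4 (3.08), FKF1 (2.82), CDF5 (2.26) and PRR9 (2.02) were highest, while PRR3 (-1.26), PRR7 (-0.49), JMJ30 (-0.47) and CHE (-0.23) were among those that fell. TOC1, the evening partner of CCA1 and LHY, rose by 1.42 ± 0.04 (SE) and GI by 0.71 ± 0.08 (SE). The probes of LUX ranged from -2.05 to 1.97, so that no direction is given for it, although the probe used counted among the 13.

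Genes of light signalling changed with them. Among 41 tested genes of the B-box zinc finger family and light signalling, 28 rose and 7 fell, with a median of 0.83. BBX31 read -4.42 and -4.32 at 0 h and 0.56 and 0.50 at 3 h, a rise of 4.9 ± 0.05 (SE, adjusted p = 1.74e-10), and BBX29 read -3.48 and -3.25 at 0 h and 1.54 and 1.5 at 3 h, a rise of 4.88 ± 0.08 (SE, adjusted p = 6.06e-10). BBX30 rose by 3.92 ± 0.07 (SE), BBX32 by 2.75 ± 0.11 (SE), and HYH and HY5, bZIP factors that promote light responses, by 3.48 ± 0.08 (SE) and 1.09 ± 0.03 (SE). The fallers were led by BBX17 (-1.71), PAR1 (-1.67) and PHYA (-0.91), the photoreceptor of far-red light. ELIP1 and ELIP2, early light-induced proteins that bind free chlorophyll, rose by 4.3 ± 0.06 (SE) and 3.78 ± 0.05 (SE), and ELIP1 read -0.49 and -0.33 at 0 h and 3.95 and 3.84 at 3 h. Most photosynthesis genes did not pass the test: in the list of 28 photosynthesis genes 7 rose, none fell, and 21 did not pass the test. PORA, the protochlorophyllide reductase of etiolated seedlings, read 0.20 and 0.11 at 0 h and -2.6 and -2.64 at 3 h and fell by 2.77.

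Abscisic acid genes rose on both sides of hormone turnover. Of 13 genes of synthesis and catabolism 8 rose and 2 fell, where 33.2% of all genes were higher and 37.6% lower. The 8'-hydroxylases that inactivate the hormone were high among them: CYP707A3 read -2.68 and -2.71 at 0 h and 2.64 and 2.67 at 3 h and rose by 5.35 ± 0.04 (SE, adjusted p = 2.72e-11), CYP707A2 rose by 3.4 ± 0.04 (SE) and CYP707A1 by 2.64 ± 0.04 (SE). The dioxygenases of the committed step, NCED3 and NCED5, rose by 2.18 ± 0.08 (SE) and 2.89 ± 0.44 (SE). The glucosidase BG1, which releases stored hormone, fell (-0.52). In signalling, 18 of 25 rose and 5 fell. The phosphatases that hold the pathway back, HAI2 (2.29), ABI2 (1.94), ABI1 (1.25) and HAB1 (1.24), and the bZIP factor ABF1 (2.28) rose. The fallers were the receptors PYR1 (-0.66), PYL5 (-0.71) and PYL8 (-0.62) and the kinases SNRK2.2 (-0.91) and SNRK2.3 (-1.0).

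Jasmonate genes rose in part. Of 16 genes of synthesis and turnover 12 were higher, among them the lipoxygenases LOX4 (3.45) and LOX3 (2.43), the methyltransferase JMT (2.61) and the oxidase CYP94C1 (1.91). LOX6 (-0.43) and AOC4 (-0.19) were among the 3 that fell. The JAZ repressors JAZ7 (2.61), JAZ1 (2.45), JAZ5 (2.25), JAZ9 (1.65) and JAZ6 (1.55) rose, while the defensin PDF1.2 read -0.46 and -0.39 at 0 h and -2.88 and -2.82 at 3 h and fell by 2.43. In all, 12 of 23 signalling and output genes rose and 7 fell, against 33.2% and 37.6% of all genes.

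Of 29 salicylate and defence genes 14 rose and 11 fell, against 33.2% and 37.6% of all genes, with a median of 0.11. WRKY18 (1.79), CBP60G (1.27), an activator of salicylate synthesis, and PR5 (1.09) rose. The salicylate output markers PCC1, PR1 and PR2 fell, unlike PR5. PCC1 read 0.29 and 0.51 at 0 h and -1.56 and -1.62 at 3 h (-1.99 ± 0.12 (SE, adjusted p = 1.02e-06)). PR1 read -3.79 and -3.78 at 0 h and -5.69 and -5.68 at 3 h (-1.9 ± 0.13 (SE, adjusted p = 2.68e-06)), and PR2 read 0.41 and 0.43 at 0 h and -1.16 and -1.1 at 3 h (-1.55 ± 0.05 (SE, adjusted p = 2.03e-08)). ICS1, the enzyme of salicylate synthesis, was at -0.11 and did not pass the test.

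Genes of growth hormones gave different counts from list to list, where 33.2% of all genes were higher and 37.6% lower. Cytokinin genes mostly rose, with 18 of 23 higher, 2 lower and a median of 0.86: the type-A response regulators ARR7 (2.79), ARR5 (2.12), ARR6 (2.12) and ARR15 (2.01) led, with the oxidases CKX3 (1.36) and CKX4 (1.24), while AHK2 (-0.43) and CKX6 (-0.57) fell. Of 16 brassinosteroid genes 11 fell, including the biosynthetic enzymes BR6OX2 (-1.74), CPD (-1.23), DET2 (-0.81) and DWF4 (-0.80), and 4 rose, led by BEE1 (1.19). Of 19 ethylene genes 11 fell, among them the receptor ETR2 (-1.56) and RTE1 (-0.86), and 5 rose, among them ACS6 (2.2). Gibberellin genes were mixed, with 10 of 20 higher and 5 lower. GA2OX1, an enzyme that inactivates gibberellin, read -4.24 and -4.21 at 0 h and 0.01 and -0.02 at 3 h and rose by 4.22 ± 0.07 (SE, adjusted p = 8.21e-10), GA3OX2, which makes the active hormone, rose by 2.91 ± 0.06 (SE), and the DELLA repressor GAI fell (-1.34). Auxin genes had a median near 0, with 14 of 29 higher and 10 lower. IAA29 read -1.6 and -1.58 at 0 h and -4.86 and -5.08 at 3 h and fell by 3.38, and PIN7 (-1.05) and GH3.3 (-1.03) fell as well, while IAA5 (1.43), IAA14 (1.25) and YUC8 (1.13) rose.

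The flavonoid pathway rose nearly from end to end. Of 27 genes 24 were higher and 1 was lower, and 19 rose at least 2-fold, with a median of 2.0. 5MAT, which adds malonyl groups to anthocyanins, read -3.72 and -3.76 at 0 h and 0.10 and 0.25 at 3 h and rose by 3.91 ± 0.09 (SE, adjusted p = 3.46e-09). Flavonol synthase FLS1 rose by 3.33 ± 0.04 (SE), the anthocyanin enzymes LDOX and UF3GT by 3.15 ± 0.06 (SE) and 2.95 ± 0.05 (SE), and MYB75, the MYB activator of anthocyanin synthesis, by 3.01 ± 0.04 (SE). Early enzymes rose too, with TT4 (chalcone synthase) at 2.42, TT5 (chalcone isomerase) at 2.9 and PAL1 at 1.61. TTG1, a WD40 partner of the MYB factors, was the 1 that fell (-0.10), and its call was lost without either replicate 1 array (-0.09 in both cases). UGT84A1, a glucosyltransferase of phenylpropanoid acids, was outside the list and rose by 4.3 ± 0.06 (SE, adjusted p = 4.4e-10).

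Genes of sugar metabolism were found among both the rises and the falls. Of 30 genes of galactinol, raffinose, sucrose and proline 18 rose and 10 fell. The sucrose phosphate synthase SPS4F (2.61), the proline synthesis enzyme P5CS1 (2.11), the raffinose synthase RS5 (2.0) and MIPS1 (2.0), which makes inositol phosphate, rose. The myo-inositol oxygenases fell: MIOX2 read 1.45 and 1.36 at 0 h and -2.0 and -2.05 at 3 h (-3.43 ± 0.07 (SE, adjusted p = 2.2e-09)), and MIOX4 was not well above background at 3 h and fell at least 25.1-fold. ERD5, the proline dehydrogenase, fell (-2.11), as did the raffinose synthase homologue DIN10 (-2.15). In starch breakdown 8 of 23 rose and 12 fell, against 33.2% and 37.6% of all genes, with BAM3 (3.88) and BAM6 (2.24) highest and the amylase AMY1 (-1.42) and the disproportionating enzyme DPE1 (-1.33) lowest.

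Genes of darkness and sugar starvation were the list with the lowest median, -1.58, and 13 of 18 fell while none rose. BCAT2, a transaminase of branched-chain amino acids, read 2.41 and 2.41 at 0 h and -1.66 and -1.63 at 3 h, a change of -4.05 ± 0.04 (SE, adjusted p = 1.47e-10). SEN1, a senescence-associated gene, read 5.16 and 5.08 at 0 h and 1.19 and 1.14 at 3 h, a change of -3.95 ± 0.07 (SE, adjusted p = 1.31e-09). THA1, a threonine aldolase, read -1.06 and -1.09 at 0 h and -4.76 and -4.82 at 3 h, a change of -3.72 ± 0.10 (SE, adjusted p = 9.98e-09). DIN11 fell by 3.25, MCCA and MCCB, subunits of the carboxylase of leucine breakdown, by 2.67 and 1.41, and DIN6, an asparagine synthetase, by 2.43. Their 3 h arrays lay below every 0 h array. The 5 members that did not pass the test were DIN9, EXL4, SnRK1.1, TPS8 and BT2.

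Of 27 cell wall genes, mainly of the XTH and expansin families, 12 were higher and 13 lower, against 33.2% and 37.6% of all genes. XTH25, a xyloglucan endotransglucosylase, showed the largest fall of any gene with a symbol that was measured at both times, from -0.86 and -0.76 to -4.90 and -5.13 (-4.2 ± 0.08 (SE, adjusted p = 1.32e-09)). XTH15 (-1.95) and XTH4 (-1.18) fell as well, and EXPB1 (1.07) and XTH22 (1.06), the touch gene TCH4, rose. EXPA16 was outside the list and read -1.95 and -1.94 at 0 h and -5.6 and -5.65 at 3 h, a change of -3.68 ± 0.05 (SE, adjusted p = 3.68e-10), and its probes ranged from -3.68 to -2.07.

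Calcium genes rose more often than they fell, 17 against 7 of 26, led by the calmodulin-like genes CML38 (3.55), CML37 (2.15) and TCH2 (1.93). CML10 (-0.91) and MCA2 (-0.74), a channel of the plasma membrane, fell. In the list of reactive oxygen and detoxification genes 15 of 27 rose and 7 fell. The glucosyltransferase UGT74E2 (2.37), the kinase OXI1 (1.99), the alternative oxidase AOX1A (1.11) and CAT2 (0.93) rose, and AOX1D (-1.32), CSD2 (-0.97) and CAT3 (-0.70) fell. Of 26 heat shock genes 9 were higher and 12 lower, near the shares of all genes (33.2% and 37.6%). HSFA6B, a heat shock factor known to respond to abscisic acid, read -6.25 and -6.43 at 0 h and -1.22 and -1.29 at 3 h and rose by 5.09 ± 0.08 (SE, adjusted p = 5.58e-10), whereas HSFA7A (-1.79), HSP15.7 (-1.57) and the coactivator MBF1C (-1.18) fell.

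Of 13 genes of the low oxygen response 3 were higher and 7 lower, against 33.2% and 37.6% of all genes. The median change was -0.80. LBD41 (-1.5), the plant cysteine oxidases PCO2 (-1.37) and PCO1 (-1.14), SUS4 (-0.98), and HB1 (-0.91), a haemoglobin, fell. Pyruvate decarboxylase PDC1 (1.2) rose, and ADH1, alcohol dehydrogenase, was at 0.01 and did not pass the test.

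Membrane and transport genes changed moderately. Of 21 lipid genes 10 rose and 4 fell. The desaturases ADS2 (1.39) and FAD8 (1.27), both known for roles at low temperature, and SFR2 (1.1), a galactolipid-remodelling enzyme, rose, and ADS1 (-0.90) fell. Aquaporins were mixed, with 8 of 20 higher and 6 lower, against 33.2% and 37.6% of all genes. TIP2;1 (-0.95) and PIP1;5 (-0.67) were lowest. Of 26 nutrient genes 17 rose and 5 fell. The iron uptake genes FRO2, a ferric reductase, and IRT1, a transporter, rose by 2.66 ± 0.09 (SE) and 2.38 ± 0.05 (SE). IRT1 read -3.52 and -3.66 at 0 h and -1.19 and -1.22 at 3 h.

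Components of RNA-directed DNA methylation, the pathway in which RDM4 was named, changed by less than 2-fold in every case. Among 44 genes of DNA methylation and demethylation 11 rose and 21 fell, near the shares of all genes. RDM1 (-0.74), DRD1 (-0.58), NRPE5 (-0.56) and the methyltransferase DRM2 (-0.54) were lowest, and AGO6 (0.84) and DML3 (0.42) highest. NRPD1, the largest subunit of RNA polymerase IV, fell (-0.37), and NRPE1, that of RNA polymerase V, was at -0.04 and did not pass the test. Among 25 genes for RNA polymerase II, its phosphatases and Mediator 4 rose and 10 fell, with NRPB8A (-0.47) and MED14 (-0.44) lowest among those that passed.

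Genes of ribosome assembly, RNA handling and the cell cycle moved little. In ribosome biogenesis 13 of 23 rose and 3 fell, with FIB2 (0.68), NOP56 (0.67) and NUC-L2 (0.66) highest. At 48 h, against the same 0 h arrays, these 3 were at 2.65, 2.18 and 1.52. Among 17 RNA-binding proteins known from the cold 4 rose and 3 fell. The cold shock protein CSP1 (0.86) rose, RZ-1A (-1.17) fell, and RH42, an RNA helicase, fell (-1.12) by the probe used while its other probes reached 0.10. Replication and cell cycle genes were 17 higher and 7 lower of 27, none by 2-fold. CDC6 (0.72) and MCM3 (0.59) rose, and the cyclin CYCD1;1 (-0.82) and the inhibitor SIM (-0.90) fell. Of 22 flowering genes 10 rose and 6 fell, against 33.2% and 37.6% of all genes. The repressors SMZ (1.51) and SNZ (1.47) and the florigen gene FT (1.43) rose. The 2 most distant probes of FCA gave -2.37 and 0.24, so that no direction is given for it.

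Further genes with the largest changes fell outside these lists. TPS03, a terpene synthase, read -7.0 and -7.12 at 0 h and -1.63 and -1.74 at 3 h and rose by 5.37 ± 1.2 (SE, adjusted p = 0.00362), with probes from 2.73 to 5.37. Its arrays agreed within each of these groups, while the standard error, which is pooled over all 6 groups, was large. UGT73C1, a glucosyltransferase, rose by 4.28 ± 0.19 (SE, adjusted p = 2.12e-07). MAPKKK14, a protein kinase, was not well above background at 0 h and rose at least 10.1-fold. Among the falls, AACT1 was at -3.59 ± 0.22 (SE, adjusted p = 1.23e-06), RTFL21, of a family of small growth-regulating peptides, at -3.24 ± 0.07 (SE, adjusted p = 3.75e-09), CYP71B22 at -2.94 ± 0.20 (SE, adjusted p = 2.84e-06), HIPP27, of a family of metal-binding isoprenylated proteins, at -2.91 ± 0.09 (SE, adjusted p = 2.71e-08), and UGT85A4 at -2.84 ± 0.06 (SE, adjusted p = 1.93e-09). NRT2.6, of the nitrate transporter family, and SRO4 were not well above background at 3 h and fell at least 3.33-fold and 2.05-fold, and the call of SRO4 was lost with normexp background correction (adjusted p = 0.0541).

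**Figure D3:**
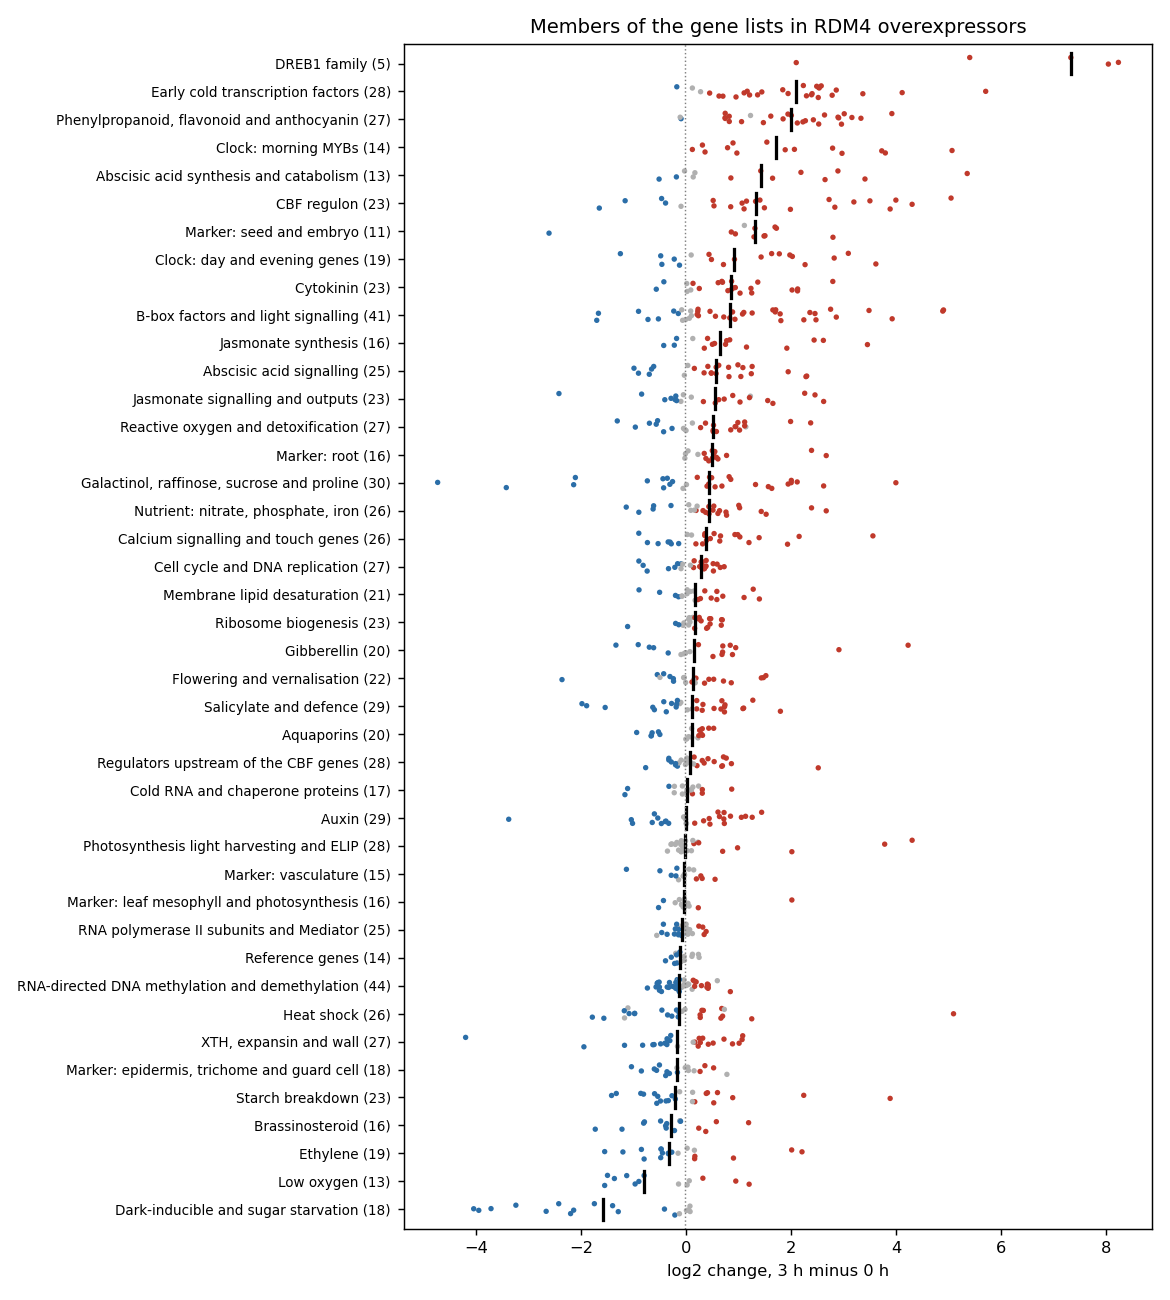
Log2 change after 3 h (horizontal axis) of each tested member of 42 gene lists in the overexpressors, with lists ordered by their median (black bar) and the number of tested members in brackets. Red points were higher, blue points lower and grey points did not pass the test; the dotted line is the median of all genes, -0.03, and medians run from 7.32 for the DREB1 family to -1.58 for dark-inducible genes.

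Markers of tissues and reference genes were followed in the same arrays. Mesophyll and photosynthesis markers, which include small subunits of Rubisco, were bright at both times. Of these 16 markers 12 did not pass the test, and their median change was -0.05. Such markers go with the leaf label but cannot show whether RNA of other tissues was present. The summed signal of the mesophyll markers, in units of the 75th percentile, was 1325 and 1144 at 0 h and 1198 and 1128 at 3 h. Vascular markers had 4 higher and 5 lower of 15. Epidermal, trichome and guard cell markers had 3 higher and 9 lower of 18, where 33.2% of all genes were higher and 37.6% lower. Summed signals were 38.3 and 36.2 at 0 h and 35.7 and 36.5 at 3 h for the vasculature. For the epidermis they were 35.4 and 34.7 at 0 h and 31.2 and 30.9 at 3 h. Among 14 reference genes none rose and 6 fell, the largest change being -0.40 for TUB2.

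Most root and seed markers were higher after 3 h. Of 16 root markers 12 were higher and none lower, with a median of 0.49 and summed signals of 13.8 and 14 at 0 h and 18.8 and 18.7 at 3 h. The list holds FRO2 and IRT1, which also stand among the nutrient genes and rose most. WER (0.60), RHD6 (0.57) and SHR (0.49), regulators of root cell identity, rose as well, while CASP1, a protein of the root endodermis, read 1.61 and 1.62 at 0 h and 1.64 and 1.55 at 3 h and did not pass. Of 11 seed markers that could be tested 9 rose and 1 fell, and 6 of 17, among them the embryo regulators LEC1, LEC2 and FUS3, were not tested because they were not well above background in either group. Their summed signal was low, 0.644 and 0.597 at 0 h and 1.49 and 1.53 at 3 h. CRU3 and CRA1, cruciferin storage proteins, rose by 1.72 ± 0.10 (SE) and 1.69 ± 0.05 (SE), and EM6, a late embryogenesis protein, by 1.5 ± 0.05 (SE), while PAP85, a vicilin-like protein, fell (-2.62). Root markers, CASP1 among them, were thus measured in RNA that the labels call leaf RNA. Whether root tissue entered the samples was not tested. The part of root and seed tissue in the changes of other genes was not tested either.

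The wild-type arrays allow the 3 h change of the overexpressors to be set against that of plants without the transgene. They do not enter the sizes of the changes above. The tests of both genotypes share 1 estimate of the spread over all 12 arrays, so their calls are not fully independent. Across the 20526 genes both changes correlated at r = 0.925 (Spearman's rho = 0.886), a description over genes that share the array design. Of the 6813 genes higher in the overexpressors 5511 also passed in the same direction in the wild type (80.9%), which is 86.4% of the 6382 genes (31.1%) higher there. Of the 7714 lower genes 6384 did so (82.8%), which is 82.5% of the 7735 (37.7%) lower in the wild type, where 68.8% of genes passed in all. CBF3 rose by 8.23 in the overexpressors and 8.62 in the wild type, CBF2 by 7.32 and 8.07, and COR15A by 2.72 and 2.76.

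The difference of the responses was then tested as an interaction over 20672 genes measured in either genotype. It passed for 1564 genes (7.57%): 1006 (4.87%) had a higher change in the overexpressors and 558 (2.7%) a lower one. A 2-fold difference was reached by 65 genes, 62 above and 3 below 0. The counts depended on the processing. Centring on the median in place of the 75th percentile gave 690 above and 929 below 0, and slide as a fixed block gave 113 and 47. The deposited value table, which holds median signals without background subtraction in 11 of its 12 columns, gave 352 and 114. Leaving out 1 of the 8 arrays gave 408 to 876 above and 110 to 584 below 0, and 876 and 584 were those without the replicate 1 array of overexpressors at 3 h. Without the other arrays the counts were 823 and 314 (wild type 0 h replicate 2), 502 and 155 (wild type 0 h replicate 1), 408 and 138 (wild type 3 h replicate 1), 417 and 161 (wild type 3 h replicate 2), 636 and 296 (overexpressor 0 h replicate 1), 414 and 153 (overexpressor 0 h replicate 2) and 435 and 110 (overexpressor 3 h replicate 2).

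Of 78 named genes whose difference passed, 40 kept the call whichever array was left out, 12 kept it with slide as a fixed block, and 11 kept it under every alternative tried. Those 11 were PCR1, LURP1, BG3, PCC1, ACD6, PR2, WRKY54, WRKY70 and OXI1 above and DIN11 and FTM1 below 0.

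**Figure D4:**
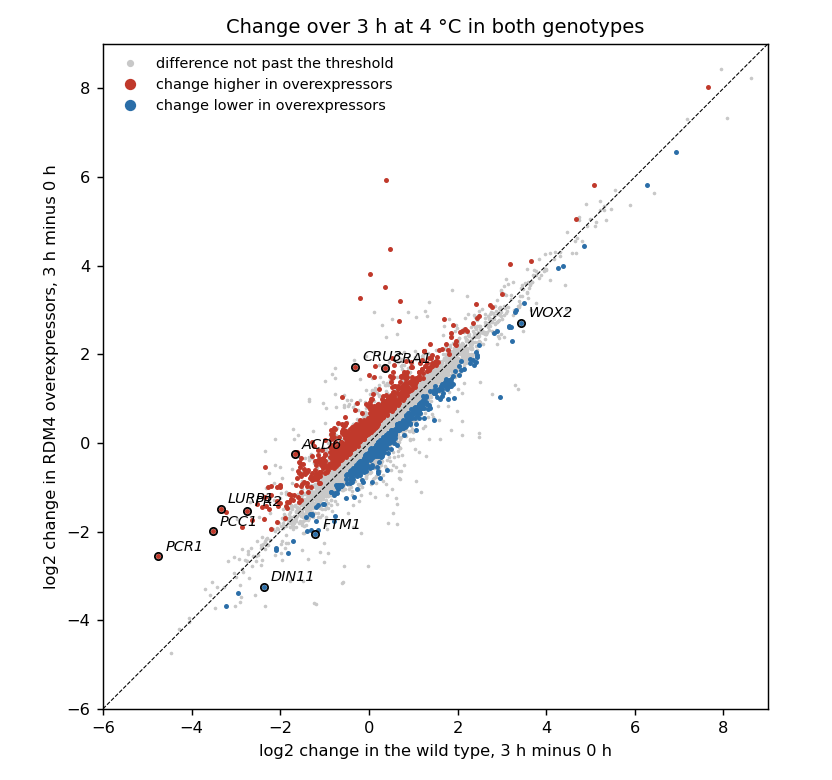
Log2 change after 3 h in the overexpressors (vertical axis) against that in the wild type (horizontal axis) for 20526 genes, with the line of equality dashed. Red and blue points passed the test of the difference; most genes lie along the line, and the largest labelled departures are PCR1, CRU3, LURP1 and PCC1 above it.

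Among the cold genes some differences passed and others did not, with both signs. The CBF1 change was 0.38 higher in the overexpressors (0.38 ± 0.07 (SE, adjusted p = 0.0188)), with 0.39 on 1 scan day and 0.37 on the other. That call was lost without either wild-type array at 3 h or the replicate 2 overexpressor array at 3 h, where the values ran from 0.37 to 0.39. It was also lost with slide as a fixed block (0.43, adjusted p = 0.1), with normexp (0.35, adjusted p = 0.301), with quantile scaling (0.37, adjusted p = 0.0856) and with the deposited value table (0.35, adjusted p = 0.238). For CBF2 (-0.75, adjusted p = 0.302) and CBF3 (-0.39, adjusted p = 0.234) it did not pass. COR15A (-0.05), RD29A (0.07), KIN1 (0.02) and COR47 (0.01) did not pass either. COR27 (0.38), LTI30 (0.38) and RD29B (0.63) passed with a higher change in the overexpressors, but each lost its call with any of at least 6 of the 8 arrays left out. GOLS3 (-0.39) and LTP4 (-0.88) passed with a lower change and kept their calls whichever array was left out. Both calls were lost with slide as a fixed block (adjusted p = 0.0638 and 0.0622). The call of GOLS3 was also lost with normexp (adjusted p = 0.0934) and with the deposited value table (adjusted p = 0.07). In the list of early transcription factors 14 of 28 passed, all with the higher change in the overexpressors, where 4.87% of genes passed in that direction. Those of ZAT10 (0.46), ERF6 (0.36) and WRKY40 (0.60) held with any 1 of the 8 arrays left out. Those of ZAT12 (0.47), CRF3 (0.43) and DREB2C (0.38) did not. None of these calls held with slide as a fixed block. The median difference over the list was 0.30. Of the 44 DNA methylation genes none passed limma's test of the difference, and 4 had an unadjusted p under 0.05. The same counts were 0 and 7 of 25 for RNA polymerase II and Mediator, and 0 and 2 of 14 for the morning clock genes, while 3 of 19 day and evening clock genes passed, all above 0 (TOC1, BOA and CDF2, each lost with any of at least 3 arrays left out), and 11 had an unadjusted p under 0.05.

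Salicylate and defence genes differed in 1 direction where they passed. In the salicylate list 16 of 29 passed, all above 0, where 4.87% of all genes passed in that direction, with a median difference of 0.40. PCC1 read 2.05 and 2.25 at 0 h and -1.46 and -1.3 at 3 h in the wild type and 0.29 and 0.51 at 0 h and -1.56 and -1.62 at 3 h in the overexpressors, a change of -3.53 and -1.99 and a difference of 1.54 ± 0.17 (SE, adjusted p = 0.00282). The overexpressors started lower, and the 3 h levels were close, but the arrays of the genotypes lay on different slides. PR2 read 1.05 and 0.93 at 0 h and -1.71 and -1.79 at 3 h in the wild type, with a difference of 1.2 ± 0.07 (SE, adjusted p = 0.000198), and PR1 read -2.7 and -2.71 at 0 h and -5.35 and -5.77 at 3 h, with a difference of 0.96 ± 0.19 (SE, adjusted p = 0.0227); the PR1 call was lost without either 0 h array of either genotype or the replicate 2 overexpressor array at 3 h. WRKY54 (1.15), WRKY38 (1.06) and WRKY70 (0.89), factors that act in salicylate signalling, differed in the same direction. WRKY70 read 1.79 and 1.7 at 0 h and 0.70 and 0.67 at 3 h in the wild type and 0.86 and 0.93 at 0 h and 0.71 and 0.74 at 3 h in the overexpressors. On the replicate 1 and replicate 2 arrays, which were scanned on different days, the difference was 1.66 and 1.41 for PCC1, 1.19 and 1.2 for PR2, and 0.94 and 0.84 for WRKY70.

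The 10 largest differences above 0 of genes with a symbol that were measured in all 4 groups were PCR1, CRU3, LURP1, BG3, PAP14, PCC1, ACD6, CRA1, PNP-A and PR2, and in 9 of them, all but CRA1, the change in the wild type was below 0. PCR1, a plasma membrane protein of cadmium resistance, read -1.23 and -1.21 at 0 h and -5.96 and -5.99 at 3 h in the wild type and -2.52 and -2.47 at 0 h and -5.08 and -5.05 at 3 h in the overexpressors, a difference of 2.19 ± 0.06 (SE, adjusted p = 8.63e-06). LURP1, a gene of resistance to downy mildew, read 1.12 and 1.18 at 0 h and -2.24 and -2.14 at 3 h and -0.26 and -0.33 at 0 h and -1.83 and -1.74 at 3 h, a difference of 1.85 ± 0.10 (SE, adjusted p = 0.000198). ACD6, an ankyrin protein of salicylate-dependent defence, read -0.28 and -0.39 at 0 h and -1.97 and -2.04 at 3 h and -1.52 and -1.33 at 0 h and -1.71 and -1.65 at 3 h, a change of -1.67 in the wild type and -0.25 in the overexpressors. In each of these 3 genes the 0 h level of the overexpressors was below that of the wild type, whose arrays lay on other slides. The storage protein gene CRU3 read -2.06 and -2.17 at 0 h and -2.4 and -2.44 at 3 h in the wild type and -4.29 and -4.22 at 0 h and -2.56 and -2.52 at 3 h in the overexpressors, and CRA1 read -0.71 and -0.72 at 0 h and -0.37 and -0.34 at 3 h and -1.86 and -1.99 at 0 h and -0.27 and -0.21 at 3 h, so that both were lower in the overexpressors at 0 h and near the wild type at 3 h. PAP14, a purple acid phosphatase, differed by 1.64 ± 0.40 (SE, adjusted p = 0.0464), and this call was lost with any 1 of the 8 arrays left out. The difference then still ran from 1.6 to 1.69, and it was 1.59 on the replicate 1 and 1.69 on the replicate 2 arrays. Its standard error is pooled over all 6 groups, and the wild-type arrays at 48 h, outside this contrast, read -8.26 and -9.39.

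**Figure D5:**
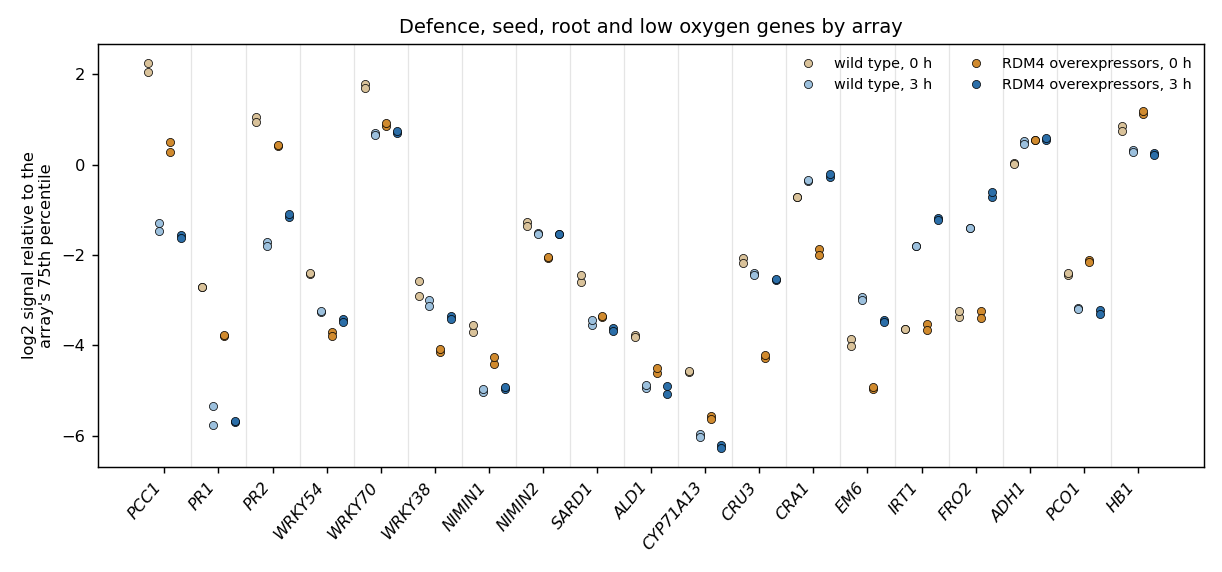
Log2 signal relative to the array's 75th percentile for 19 defence, seed, root and low oxygen genes in 8 arrays, with 1 point an array and pale colours for the wild type. For the defence and seed storage genes the 0 h points of the overexpressors lie below those of the wild type, and the 3 h points of the genotypes lie closer together. Arrays of the genotypes lay on different slides.

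Among genes with a symbol that were measured in all 4 groups, the 10 largest differences below 0 ran from -0.96 to -0.69, smaller than the 10 above 0. They were BGLU28, MLO9, LTP4, DIN11, D6PK, FTM1, CWINV5, JAL23, WOX2 and EXPA4. DIN11 read -1.06 and -1.09 at 0 h and -3.41 and -3.49 at 3 h in the wild type and -1.33 and -1.34 at 0 h and -4.54 and -4.63 at 3 h in the overexpressors, a difference of -0.88 ± 0.07 (SE, adjusted p = 0.000833), and FTM1, a fatty acid desaturase gene known from floral transition, read -2.83 and -2.82 at 0 h and -4.0 and -4.08 at 3 h and -1.61 and -1.66 at 0 h and -3.69 and -3.7 at 3 h, a difference of -0.85 ± 0.06 (SE, adjusted p = 0.000388). WOX2, a homeobox gene of early embryos, changed by 3.43 in the wild type and 2.71 in the overexpressors. MLO9 (-0.90) lost its call with any 1 of the 8 arrays left out, and D6PK (-0.87) and EXPA4 (-0.69) with any but the replicate 1 array of overexpressors at 3 h. Among low oxygen genes 7 of 13 passed, all below 0, where 2.7% of genes passed in that direction: HB1 (-0.41), ADH1 (-0.45), ACO1 (-0.43), PDC1 (-0.39), PCO1 (-0.38), SUS4 (-0.36) and PCO2 (-0.34). HB1 kept its call with any 1 of the 8 arrays left out and the other 6 each lost theirs in at least 3 of those fits. With slide as a fixed block none of these low oxygen calls held. ADH1 read 0.04 and 0.01 at 0 h and 0.51 and 0.47 at 3 h in the wild type and 0.55 and 0.56 at 0 h and 0.55 and 0.59 at 3 h in the overexpressors, so that it rose in the wild type (0.46) and did not pass in the overexpressors, which stood higher at 0 h. In the flavonoid list 6 of 27 passed below and 1 above 0, with TT19 (-0.53), a glutathione transferase of anthocyanin transport, furthest below, and LDOX (-0.34) and MYB75 (-0.30) lost their calls with any 1 of at least 7 arrays left out. Root and seed markers, most of which rose in the comparison above, had 7 of 16 and 4 of 11 differences above 0 and none below. Summed root signals in the wild type were 16.1 and 15.1 at 0 h and 17.1 and 16.7 at 3 h. Their part in the differences was not tested.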

How the data were processed

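The deposited intensity values were background-corrected 1-colour signals from Agilent Feature Extraction 10.7.1.1, per the file headers, made by the authors from 150 ng of Cy3-labelled RNA with an RNA integrity number of at least 7.5, per the labels' protocols. The deposited table of all arrays also held intensity values, and 11 of its 12 columns equalled the scanner's median signal. The column of the replicate 2 overexpressor array at 48 h equalled it for 1.45% of features only. Control spots were left out and spots of a probe averaged. Values are log2 of the processed signal minus the array's 75th percentile. A probe was kept if well above background on both arrays of either group, and each gene was represented by the brightest of its kept probes, averaged across 12 arrays. Probes were named through RefSeq accessions and locus tags.

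Groups were compared with limma 3.58.1 in R 4.3.3 (lmFit and eBayes, 6 group means over 12 arrays, 6 residual degrees of freedom) with Benjamini-Hochberg adjustment and a threshold of 0.05. The difference of responses was the interaction with genotype. The procedure was tested on simulated data. The labels call the replicates biological. With 2 arrays a group, array number limits the precision. A gene dim in a group has a bound only: brighter mean over the dim group's floor, given as "at least".

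Comparison, gene lists and naming rule were chosen with earlier results of these data known. Named were RDM4, 7 core cold genes, the 15 largest rises and falls, lists of up to 8 members in full, up to 6 of the largest changes of every other list, members that fell or did not pass where named so, and the 10 largest differences of response each way. Further list members, such as ICE1, TOC1, BOA, CDF2 and WRKY70, were chosen after their values were seen. No sequence was used, so the planned search for promoter motifs was not run. The closing section gives the effect of other background corrections, scalings, filters, blocks and left-out arrays.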

Additional observations from a re-analysis of the deposited data

Results flagged for a closer look

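For 78 of 337 named genes the 3 h change differed between overexpressors and wild-type seedlings by limma's test of the interaction. Benjamini-Hochberg adjustment ran over 20672 genes, of which 7.57% passed. The 10 largest differences each way were named because they passed, so the count of 78 cannot be set against that share. Calls that held and calls lost under other processing or with an array left out are listed here alike. Each value in brackets is the change in the overexpressors minus that in the wild type, on the log2 scale. It was above 0 for 45 genes and below 0 for 33.

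Cold regulators and regulon genes above 0 were CBF1 (0.38), COR27 (0.38), LTI30 (0.38) and RD29B (0.63), and those below 0 were GOLS3 (-0.39), LTP4 (-0.88) and PIF7 (-0.20). The stress factors named were above 0, with ZAT10 (0.46), ZAT12 (0.47), ERF6 (0.36), DREB2C (0.38), CRF3 (0.43), WRKY22 (0.42), WRKY40 (0.60) and MYB15 (0.47). Clock genes above 0 were TOC1 (0.36), BOA (0.25) and CDF2 (0.31).

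Salicylate and defence genes above 0 were PCC1 (1.54), PR1 (0.96), PR2 (1.2), PR5 (0.24), WRKY18 (0.37), WRKY38 (1.06), WRKY54 (1.15), WRKY70 (0.89) and CBP60G (0.40). Genes of jasmonate turnover and output were CYP94C1 (0.55) and CYP94B3 (0.78) above and JMT (-0.56) and PDF1.2 (-0.32) below 0. Other hormone genes were ACS2 (0.30) above and ACO1 (-0.43), IAA5 (-0.31), IAA29 (-0.43), BEE1 (-0.35), BG1 (-0.47) and PYR1 (-0.26) below 0.

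The flavonoid genes named were below 0, with LDOX (-0.34), MYB75 (-0.30), UF3GT (-0.34) and TT19 (-0.53). The low oxygen genes named were below 0 as well, with PCO1 (-0.38), PCO2 (-0.34), PDC1 (-0.39), SUS4 (-0.36), HB1 (-0.41) and ADH1 (-0.45). Metabolism, oxidative stress and heat genes were AMY1 (0.44), OXI1 (0.56), AOX1D (0.75), MGD3 (0.38) and HSFA7A (0.27) above and ADS1 (-0.47), CSD2 (-0.34) and DIN11 (-0.88) below 0. The iron, nitrate and root genes named were above 0, with FRO2 (0.77), IRT1 (0.54), NRT1.8 (0.45) and RHD6 (0.30), and so were the seed genes, with CRU3 (2.02), CRA1 (1.33) and EM6 (0.53). The wall genes named were below 0, with EXPA16 (-0.46) and EXPA4 (-0.69).

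Of the largest differences outside these lists, PCR1 (2.19), LURP1 (1.85), BG3 (1.64), PAP14 (1.64), ACD6 (1.42) and PNP-A (1.29) were above 0, and BGLU28 (-0.96), MLO9 (-0.90), D6PK (-0.87), FTM1 (-0.85), CWINV5 (-0.78), JAL23 (-0.77) and WOX2 (-0.72) were below 0. With slide as a fixed block 12 of the 78 differences passed.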

How the results depend on the processing

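The counts of the 3 h comparison held within 1.5 times under all 20 alternatives, which covered background correction, scaling, filter, probe choice, blocks, variance model and left-out arrays. Genes that were higher ranged from 6104 to 6976 and lower ones from 6787 to 8236. Genes at least 2-fold higher ranged from 1110 to 1460 and lower from 401 to 645. Leaving out 1 array gave 6104 to 6312 higher, 6787 to 7088 lower, 1360 to 1378 at least 2-fold higher and 555 to 622 lower. With replicate number as a block they were 6976, 7971, 1378 and 577. Under that block PP2AA3, a reference gene, lost its call (adjusted p = 0.0514), as did the differences of D6PK (adjusted p = 0.0618) and IAA29 (adjusted p = 0.0536). The labels do not say that a number marks a shared batch. Deviations from the group means of same-numbered arrays correlated at r = 0.00217 between the overexpressor groups at 0 h and 3 h, 0.21 between the wild-type groups at 0 h and 3 h, and 0.108 between wild type and overexpressors at 0 h, and with 2 arrays a group these values do not settle whether the numbers pair the arrays. Of the 316 named genes that passed, 18 lost the call under some alternative, and none changed sign. RDM4 passed with slide as a block only (-0.19, adjusted p = 0.0375). Medians of 4 lists, all near 0, changed sign. Genes that were dim in a group, such as RRTF1, DDF1 and MIOX4, moved by more than 1.5 times in size with normexp.

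The difference of responses was less stable. Against 1006 genes above and 558 below 0, normexp gave 476 and 182, no background filter 614 and 261, the values tabulated by the authors gave 352 and 114, slide as a fixed block 113 and 47, only the arrays compared 810 and 360, median scaling 690 and 929, and a trended variance 1188 and 845. The slide block leaves 2 residual degrees of freedom in place of 6. The cause of the other shifts was not tested. Leaving out 1 array gave 408 to 876 above and 110 to 584 below 0. The replicate block gave 1108 and 655, and a scan day block 1044 and 572. Dim genes have bounds only, and 941 genes had probes that disagreed in direction.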

Other observations

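Genes without a symbol, chosen after their values were seen, were among the largest changes. AT2G22590 read -6.31 and -6.34 at 0 h and 0.98 and 0.99 at 3 h, a rise of 7.3 ± 0.07 (SE, adjusted p = 8.39e-11). AT2G27420 rose by 6.57 ± 0.06 (SE), AT4G34550 by 5.82 ± 0.08 (SE), AT3G09450 by 5.64 ± 0.17 (SE) and AT1G07050 by 5.25 ± 0.06 (SE). In all of these the 3 h arrays lay above both 0 h arrays. AT1G70640 was not well above background at 0 h and rose at least 182-fold, and AT1G33760, AT1G26790, AT4G13790 and AT4G27360 rose at least 31.9-fold, 25.3-fold, 24.6-fold and 23-fold from such levels. Among the falls, AT4G38825 (-3.68, adjusted p = 0.0024) and AT1G12805 (-3.43, adjusted p = 0.0465) had large standard errors, of 0.764 and 1.34, and were followed in size by AT1G15125 (-3.3), AT1G33055 (-3.24) and AT3G61028 (-3.2).

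Some probes were well above background on both overexpressor arrays at 3 h and on none of the other 10 arrays. There were 20 such probes of 43495, against 35 for wild type at 0 h, 2 for wild type at 3 h, 10 for wild type at 48 h, 15 for overexpressors at 0 h and 14 for overexpressors at 48 h. AT1G31510 was the brightest of those whose difference of responses passed. It read -3.46 and -3.43 in the overexpressors at 3 h, and it was not well above background in any other group. Its rise was at least 14.9-fold, and its difference of responses passed limma's test at an adjusted p of 0.0149. EC1.2, BGLU4, AT5G63740 and AT5G35195 were the others whose difference passed. All of these were picked for being bright in the overexpressors at 3 h only. Their rises and test results follow in part from that choice and are no separate evidence.

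The 1006 differences of response above 0 were of 3 kinds by the sign of the changes, whether or not each change passed. In 418 genes the change was above 0 in both genotypes, in 290 it was below 0 in both, and in 298 the signs were opposite. Among the 558 below 0 the same counts were 261, 158 and 139.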
